A study of Mus musculus with 6 samples.

Results

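The 10 genes described here are markers of adipocyte progenitors and fibroblasts in subcutaneous white adipose tissue (scWAT), chosen by symbol from the 55401 genes of the count files: *Pdgfra*, *Pdgfrb*, *Cd34*, *Ly6a*, *Thy1*, *Dcn*, *Dpp4*, *Pi16*, *Icam1* and *F3*. RNA sequencing had been done on whole scWAT of 8-week-old male mice housed at room temperature, with 3 libraries in each of 2 groups. The group labelled YT-AKO carried *Yap* and *Taz* floxed alleles and the *Adipoq* Cre (genotype Yapfl/fl/Tazfl/fl;AdipoqCre), a Cre driven by the adiponectin promoter, which is active in mature adipocytes. The labels give the control genotype as WT; the control group is called YT-FF here, the name used in the study's methods. Neither group carried the Cre without floxed alleles. The comparison asks how RNA of the progenitor compartment differed when the deletion was directed at the adipocytes.

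Adipocyte progenitors are stromal cells of the fat depot that carry the PDGF receptors and give rise to new adipocytes. Several states have been described: interstitial progenitors marked by DPP4 and PI16, which lie in the connective tissue around the lobules; committed preadipocytes marked by ICAM1; and regulatory cells marked by F3 (CD142), which restrain the differentiation of their neighbours. CD34, Ly6a (Sca-1) and Thy1 sit on the surface of most of these cells, and decorin (*Dcn*) is a proteoglycan that fibroblasts secrete. Because the libraries were made from whole tissue, fewer cells of a type and less RNA per cell cannot be told apart.

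The libraries held 17740987 to 21838493 counts assigned to genes. All 10 genes passed the filter on low counts, as did 16807 genes in all. The floxed genes went in opposite directions: *Yap1* was at 64.3 ± 6.34 CPM (counts scaled to a common library total; SD, n = 3) in YT-FF and 32.7 ± 4.53 in the libraries labelled YT-AKO (log2 fold change -0.98, SE 0.167, edgeR adjusted p = 0.0179), whereas *Wwtr1*, which encodes TAZ, was at 84.1 ± 12.7 and 156 ± 21.5 (0.89, SE 0.182, adjusted p = 0.0220). The *Wwtr1* value goes against the label, and every direction given here is therefore a direction in the libraries labelled YT-AKO. However, counts of whole genes include exons outside a floxed part. Whole tissue also includes cells other than the adipocytes at which the deletion was directed. CPM were scaled by TMM, edgeR's trimmed mean of M values. The groups also differed by gene length: over the genes tested, Spearman's rho between a gene's deviation from its mean and its log2 length ran from 0.312 to 0.359 in YT-FF and from -0.382 to -0.184 in the libraries labelled YT-AKO, lowest in replicate 2. Its part in the results was not tested. Values corrected for length are given where they end a call and, for the 10 genes, where they make one.

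The sequences before the transcription start are shown for *Dpp4*, *Pi16* and *F3*, the markers of named progenitor states whose CPM did not overlap between the groups. Each is the 250 bases upstream of the RefSeq start on GRCm38.p6, on the gene's strand, 5′ to 3′. Capitals mark matches, searched on both strands, to the TEAD motif GGAATG in *Dpp4*, the C/EBP motif TTNNGNAA in *Pi16* and the AP-1 motif TGANTCA in *F3*. TEAD factors are the DNA-binding partners of YAP and TAZ.
*Dpp4*, chr2:62412232-62412481, minus strand: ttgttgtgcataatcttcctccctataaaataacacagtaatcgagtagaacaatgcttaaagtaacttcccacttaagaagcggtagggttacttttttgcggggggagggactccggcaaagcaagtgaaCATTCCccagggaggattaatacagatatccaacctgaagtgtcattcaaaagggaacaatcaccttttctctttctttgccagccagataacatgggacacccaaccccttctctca
*Pi16*, chr17:29318632-29318881, plus strand: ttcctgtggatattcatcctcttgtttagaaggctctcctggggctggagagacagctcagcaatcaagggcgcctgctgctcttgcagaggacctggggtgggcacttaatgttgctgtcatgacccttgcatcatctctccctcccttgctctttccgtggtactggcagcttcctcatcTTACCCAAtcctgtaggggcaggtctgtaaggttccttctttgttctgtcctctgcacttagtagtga
*F3*, chr3:121723287-121723536, plus strand: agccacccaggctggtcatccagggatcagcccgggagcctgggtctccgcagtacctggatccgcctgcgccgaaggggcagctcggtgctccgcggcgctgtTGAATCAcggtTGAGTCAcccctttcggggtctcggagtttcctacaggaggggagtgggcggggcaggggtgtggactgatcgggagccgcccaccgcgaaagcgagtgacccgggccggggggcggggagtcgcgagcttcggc
Counting back from the start, the match in *Dpp4* began at base -118 (CATTCC) and that in *Pi16* at -68 (TTACCCAA), both the motif on the other strand. Those in *F3* began at -146 and -135. The *Pi16* window lies inside the gene as the files annotate it, since that gene model begins at base 29317680 of chromosome 17. RefSeq windows were at hand for 6 of the 10 genes. A TEAD match was present in 1 of these 6, an AP-1 match in 1 and a C/EBP match in 3, and over 32841 mouse promoters of this length the shares were 12.6%, 6.75% and 36.9%. A match is a run of letters, and binding was not measured.

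Among the 10 genes, *Pi16* and *Ly6a* rose and *Dpp4* fell in the libraries labelled YT-AKO at an adjusted p under 0.05, and the other 7 did not pass. The background was 12.6% of tested genes called higher and 9.01% called lower, 21.6% in all, so 3 of 10 is not far from the share among all genes. At the study's own threshold (adjusted p under 0.01 and a change of more than 1 on the log2 scale) 0 of the 10 passed in edgeR, where 0.125% of all genes did, and 0 in DESeq2, where 11.9% did. At an unadjusted p under 0.05, 5 of the 10 passed in edgeR, where 40.8% of all genes did (22.2% higher, 18.6% lower), and DESeq2 called 6 of 10 (4 higher, 2 lower) against a background of 32.3% (18.1% higher, 14.3% lower). With length correction 3 of the 10 were called higher and 2 lower, where 10.1% and 4.54% of all genes were (14.6% in all), and with library totals 0 and 2, where 6.77% and 16.8% were (23.6% in all). Without YT-AKO replicate 2 the calls were 4 higher and 1 lower, beside 16.9% and 14% (30.8% in all), and with length correction as well 5 and 2, beside 15% and 8.47% (23.5% in all). The median log2 fold change was 0.18 over the 10 genes and -0.02 over all genes tested; with library totals the values were -0.14 and -0.34. The CPM of the groups did not overlap for 6 genes: *Pi16*, *Cd34*, *Ly6a* and *Dcn* were higher and *Dpp4* and *F3* lower in every library labelled YT-AKO. Among all tested genes, 25.7% were higher and 25.8% lower without overlap, 51.5% in all.

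**Figure D1:**
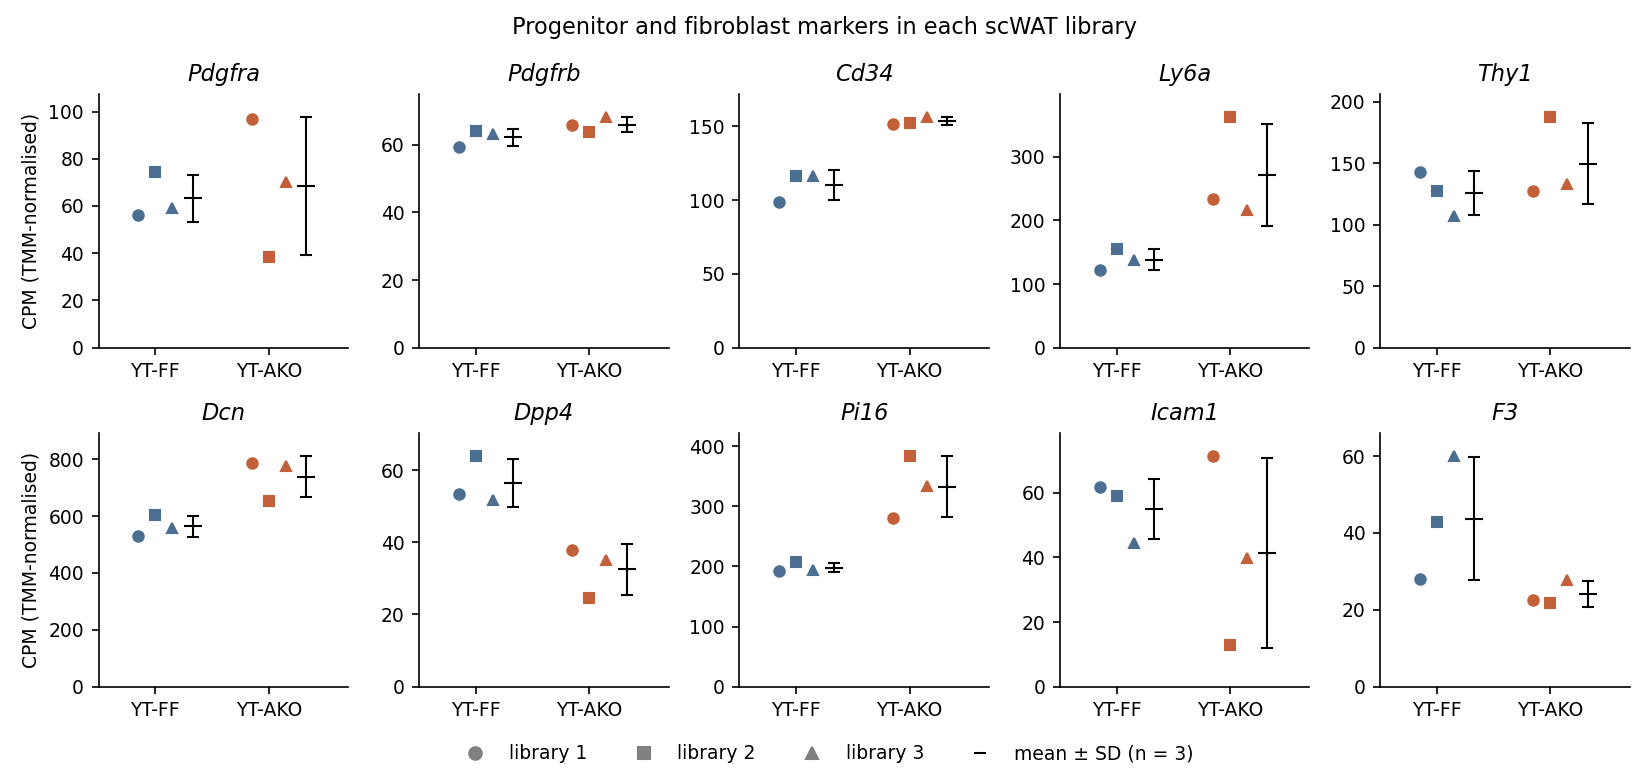
TMM-scaled CPM of the 10 genes in each library, YT-FF against the libraries labelled YT-AKO; points are libraries and bars the group mean with its SD (n = 3). *Pi16* sits at 192 to 207 in YT-FF and 282 to 384 in YT-AKO, *Dpp4* at 51.7 to 64.0 and 24.5 to 37.8, and *Icam1* spans 12.9 to 71.5 within YT-AKO.

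The PDGF receptors did not pass the test. *Pdgfra* (chromosome 5, 75152292 to 75198215, mm10), the receptor that marks most adipocyte progenitors, was at 56.0, 74.5 and 59.3 CPM in the YT-FF libraries and 97.0, 38.3 and 70.0 in those labelled YT-AKO. Its lowest and its highest value were both in YT-AKO (log2 fold change 0.11, SE 0.316, adjusted p = 0.806), and the value became -0.22 without YT-AKO replicate 1. *Pdgfrb* (chromosome 18, 61045150 to 61085061), the receptor shared by progenitors and mural cells, was at 59.3, 64.1 and 63.0 CPM against 65.8, 63.8 and 68.3. Its groups overlapped and their SDs were 2.53 and 2.26 CPM (0.09, SE 0.134, adjusted p = 0.655).

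Of the surface markers carried by most progenitors, *Ly6a* passed the test and *Cd34* and *Thy1* did not. *Ly6a* (Sca-1; chromosome 15, 74994877 to 74998031) was at 122, 155 and 138 CPM in YT-FF and 233, 363 and 217 in the libraries labelled YT-AKO. Every YT-AKO library lay above every YT-FF library, by 1.97-fold on average (0.98, SE 0.234, adjusted p = 0.0295). *Ly6a* is a short gene of 1205 exonic bases, 19.0% of whose 50-base words occur also in *Ly6c1*, *Ly6i*, *Ly6c2* or I830127L07Rik, so its counts are uncertain where reads fell on shared stretches. With a correction for length its change was 0.53 (adjusted p = 0.0760). *Cd34* (chromosome 1, 194938819 to 194961279), a sialomucin also made by endothelium, was at 98.5, 117 and 116 CPM in YT-FF and 152, 153 and 157 in YT-AKO. The groups were separate, and the test gave 0.48 (SE 0.147, adjusted p = 0.0532), short of the threshold. With a correction for length *Cd34* was at 0.79 (edgeR adjusted p = 0.0258), and DESeq2 gave 0.48 (adjusted p = 0.0133). *Thy1* (CD90; chromosome 9, 44043384 to 44048579), found on fibroblasts and T cells, was at 143, 127 and 107 CPM against 128, 188 and 134. Its groups overlapped (0.25, SE 0.205, adjusted p = 0.384), and the highest value was in YT-AKO replicate 2, the library with the highest summed T cell markers, 755 CPM against 337 to 590 in the other 5. In that library *Cd3d* was at 165 CPM against 31.5 to 35.8 in the other 5, and *Cd3g*, *Trac* and *Lck* were also highest. *Cd4* had its lowest value there (38.3 CPM), and *Cd3e* and *Cd8a* were higher in YT-FF replicate 1. A link to *Thy1* was not tested.

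*Dcn* (chromosome 10, 97479609 to 97518143), which encodes the collagen-binding proteoglycan decorin, had the highest CPM of the 10 genes in every library. It was at 531, 604 and 557 CPM in YT-FF and 787, 655 and 777 in the libraries labelled YT-AKO. The groups did not overlap, but the change of 0.39 (SE 0.175) did not pass (adjusted p = 0.133). Without YT-AKO replicate 2 it was 0.47 with an adjusted p of 0.0224, and *Cd34* likewise passed without that library (0.48, adjusted p = 0.0227). On all 6 libraries *Dcn* was at 0.59 with length correction (edgeR adjusted p = 0.0451), and DESeq2 gave 0.39 (adjusted p = 0.0432).

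The interstitial progenitor markers moved in opposite directions. *Dpp4* (chromosome 2, 62330073 to 62412231), a dipeptidyl peptidase of the cell surface, was at 53.4, 64.0 and 51.7 CPM in YT-FF and at 37.8, 24.5 and 35.2 in the libraries labelled YT-AKO. The fall was 1.73-fold, with no overlap (log2 fold change -0.79, SE 0.201, adjusted p = 0.0334). After length correction *Dpp4* was at -0.57, just under the threshold (edgeR adjusted p = 0.04996). *Pi16* (chromosome 17, 29317680 to 29330593), a secreted peptidase inhibitor, was at 192, 207 and 194 CPM in YT-FF and 282, 384 and 333 in YT-AKO. The rise was 1.68-fold, again with no overlap (0.75, SE 0.174, adjusted p = 0.0275). Each of these calls was lost when 1 of several libraries was left out. For *Dpp4* the adjusted p was 0.124, 0.143 and 0.0708 without YT-FF replicates 1, 2 and 3 and 0.0539 without YT-AKO replicate 3. For *Pi16* the same exclusions gave 0.132, 0.129, 0.0722 and 0.0536. *Ly6a* was lost without YT-FF replicates 1, 2 and 3 (0.135, 0.121 and 0.0786). Without YT-FF replicate 1, 0 of all genes passed in edgeR (4665 at an unadjusted p under 0.05), and without YT-FF replicate 2 it was 2 (4507). DESeq2 on all 6 libraries called the 3 genes (adjusted p = 0.00393 for *Dpp4*, 0.00108 for *Pi16* and 0.00207 for *Ly6a*). The directions of these 3 genes held under all 17 alternatives, from -1.10 to -0.47 for *Dpp4*, 0.41 to 1.01 for *Pi16* and 0.45 to 1.12 for *Ly6a*.

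**Figure D2:**
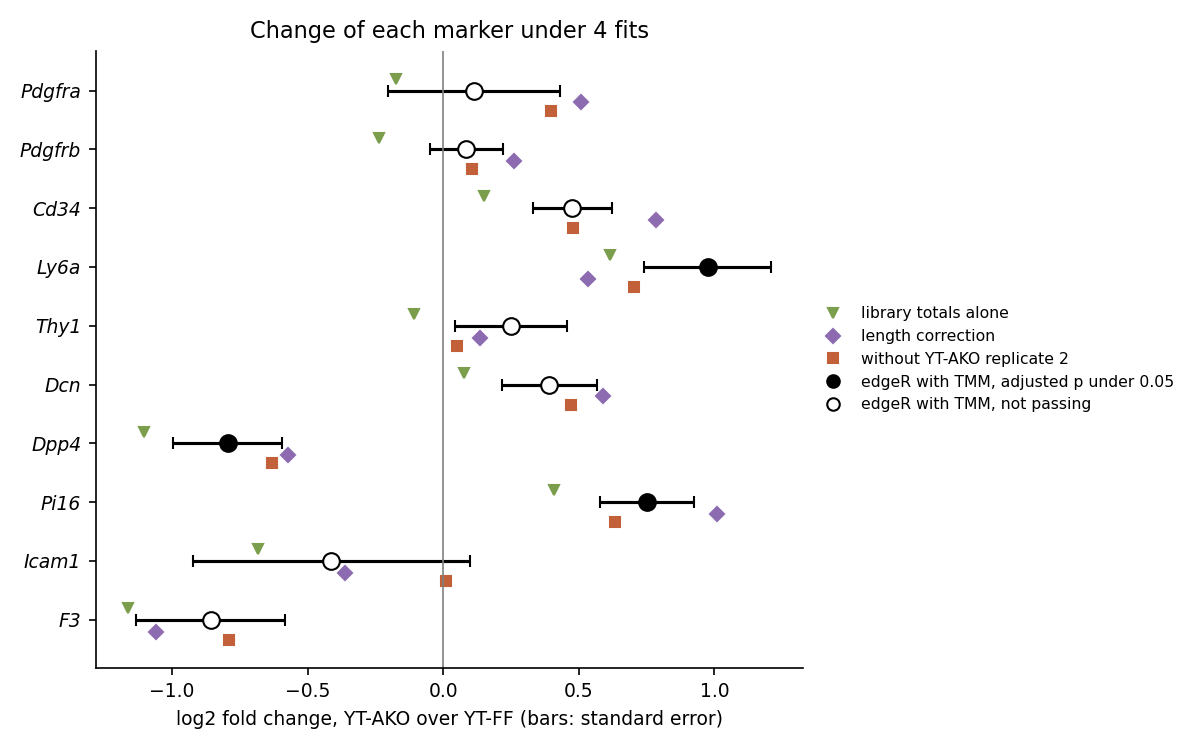
Log2 fold change (libraries labelled YT-AKO over YT-FF) of each of the 10 genes with its standard error in the edgeR test, beside the values with library totals, with length correction and without YT-AKO replicate 2. *Dpp4* stays between -1.10 and -0.57 and *Pi16* between 0.41 and 1.01, whereas *Icam1*, *Pdgfra*, *Pdgfrb* and *Thy1* have values on both sides of 0.

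The marker of committed preadipocytes had the largest standard error of the 10 genes. *Icam1* (chromosome 9, 21015985 to 21028817), an adhesion molecule that endothelium and leukocytes also carry, was at 61.7, 59.1 and 44.3 CPM in YT-FF and 71.5, 12.9 and 39.8 in the libraries labelled YT-AKO. The YT-AKO values enclosed those of YT-FF (-0.41, SE 0.510, adjusted p = 0.567), and without YT-AKO replicate 2 the change was 0.01. Of its exonic bases 11.7% are shared with the overlapping gene *Gm47079*. *F3* (tissue factor, CD142; chromosome 3, 121723537 to 121735048), the marker of the regulatory cells, was at 28.1, 42.8 and 60.1 CPM in YT-FF and at 22.6, 21.8 and 27.9 in YT-AKO. All YT-AKO values were below all YT-FF values, the nearest by a narrow margin, and YT-FF spread widely; the change of -0.86 (SE 0.276) did not pass (adjusted p = 0.0592). Without YT-FF replicate 3 it was -0.55 (adjusted p = 0.162). On all 6 libraries *F3* was at -1.06 with length correction (edgeR adjusted p = 0.0434), and DESeq2 gave -0.86 (adjusted p = 0.0238).

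In TPM (counts divided by exon length and scaled to a common total), the separation of the higher genes was absent. A gene's exon length is the same in every library, so between groups its TPM differs from its CPM only in how libraries are scaled. By TPM, 0 of the 10 genes were higher and 4 lower without overlap (*Pdgfrb*, *Dpp4*, *F3* and *Thy1*), where 7.52% of all tested genes were higher and 54.5% lower, 62% in all. *Pi16* was at 116, 128 and 110 TPM in YT-FF and 123, 106 and 142 in the libraries labelled YT-AKO, which overlap. *Dpp4* was at 32.5, 40.0 and 29.5 against 16.7, 6.80 and 15.2, still apart. Scaling by library totals alone moved the median log2 fold change of all genes to -0.34. On that scale *Pi16* was at 0.41 (edgeR adjusted p = 0.0990) and *Ly6a* at 0.62 (adjusted p = 0.0536), while *Dpp4* (-1.10, adjusted p = 0.0289) and *F3* (-1.16, adjusted p = 0.0302) passed. Relative to the median of all genes, *Pi16* lay 0.77 above it with TMM and 0.75 above it with library totals, and *Dpp4* lay at -0.77 and -0.76.

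In YT-FF the order of levels per length was led by *Ly6a* (435 ± 63.0 TPM, SD, n = 3) and *Dcn* (367 ± 35.6), whose ranges overlapped. *Thy1* (160 ± 27.9) and *Pi16* (118 ± 9.17) followed, apart from each other. *F3* (65.2 ± 21.6), *Cd34* (57.5 ± 5.61), *Icam1* (48.2 ± 9.99) and *Pdgfrb* (43.1 ± 2.69) came next, each overlapping its neighbour in this order, although *Cd34* lay above *Pdgfrb* without overlap. *Dpp4* (29.5 to 40.0) and *Pdgfra* (24.0 ± 4.59) were lowest. In the libraries labelled YT-AKO, *Ly6a* (519 ± 26.5) and *Dcn* (311 ± 99.7) again led and no longer overlapped, *Pi16* (124 ± 18.3) and *Thy1* (117 ± 5.94) overlapped, and *Cd34* (51.1 ± 12.5) was separate. The lowest genes, from *Pdgfrb* (29.3 ± 7.67) through *Icam1* (25.2 ± 20.3), *F3* (23.4 ± 7.57) and *Pdgfra* (17.6 ± 10.2) to *Dpp4* (12.9 ± 5.31), each overlapped the next.

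**Figure D3:**
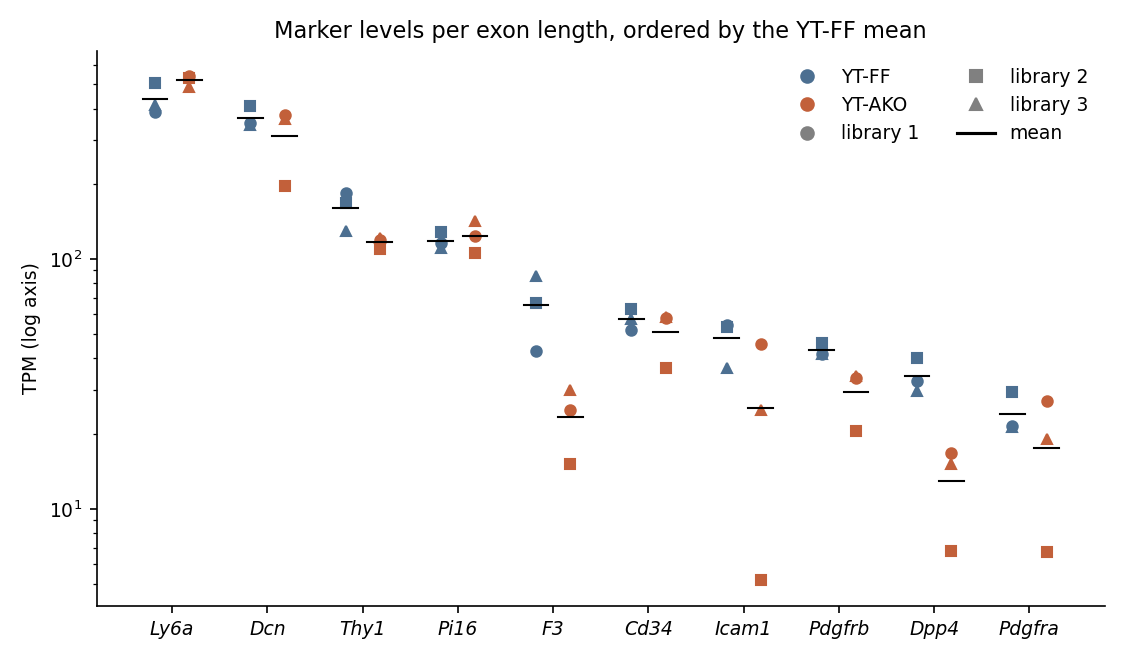
Levels of the 10 genes per length, in TPM on a log axis, in each library of both groups, ordered by the YT-FF mean; points are libraries and bars group means. *Ly6a* and *Dcn* lead in both groups, *Pdgfra* is lowest in YT-FF at 24.0 and *Dpp4* lowest in YT-AKO at 12.9 TPM.

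Ratios of one marker to another within a library do not depend on how libraries are scaled. The TPM ratio of *Pi16* to *Dpp4*, 2 markers of the same interstitial cells with nearly equal exon lengths (6364 and 6319 bases), was 3.57, 3.21 and 3.74 in YT-FF and 7.40, 15.6 and 9.40 in the libraries labelled YT-AKO. It was 2.93-fold higher in YT-AKO, with no overlap (log2 difference 1.55, 1.56 after length correction; p = 0.1, two-sided exact permutation test, the smallest p that 3 against 3 allows). This ratio was chosen after the values of both genes had been seen. With 3 libraries a group, no such ratio could reach 0.05.

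Of the 9 ratios to *Pdgfra*, those of *Dpp4*, *Icam1* and *Ly6a* did not overlap between the groups. No share over all genes is given for such ratios, so this count has no background beside it. *Dpp4* to *Pdgfra* was 1.51, 1.36 and 1.38 in YT-FF and 0.618, 1.02 and 0.798 in YT-AKO (log2 difference -0.84, exact permutation p = 0.1, adjusted 0.3 over the 9). *Ly6a* to *Pdgfra* was 18.05, 17.3 and 19.3 against 20.0, 79.0 and 25.8, but its log2 difference of 0.92 became 0.07 after length correction. *Icam1* to *Pdgfra* was 2.53, 1.82 and 1.72 against 1.69, 0.772 and 1.31, apart by a narrow margin (log2 difference -0.74, exact permutation p = 0.1). *F3* to *Pdgfra* differed by -0.82 with overlap (exact permutation p = 0.2), which became -1.47 without overlap after length correction. Between the markers of different states, *Dpp4* to *F3* differed by -0.01 (exact permutation p = 1), *Dpp4* to *Icam1* by -0.10 (0.9), *Icam1* to *F3* by 0.08 (0.9) and *Pi16* to *Icam1* by 1.46 (0.2), all with overlap.

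**Figure D4:**
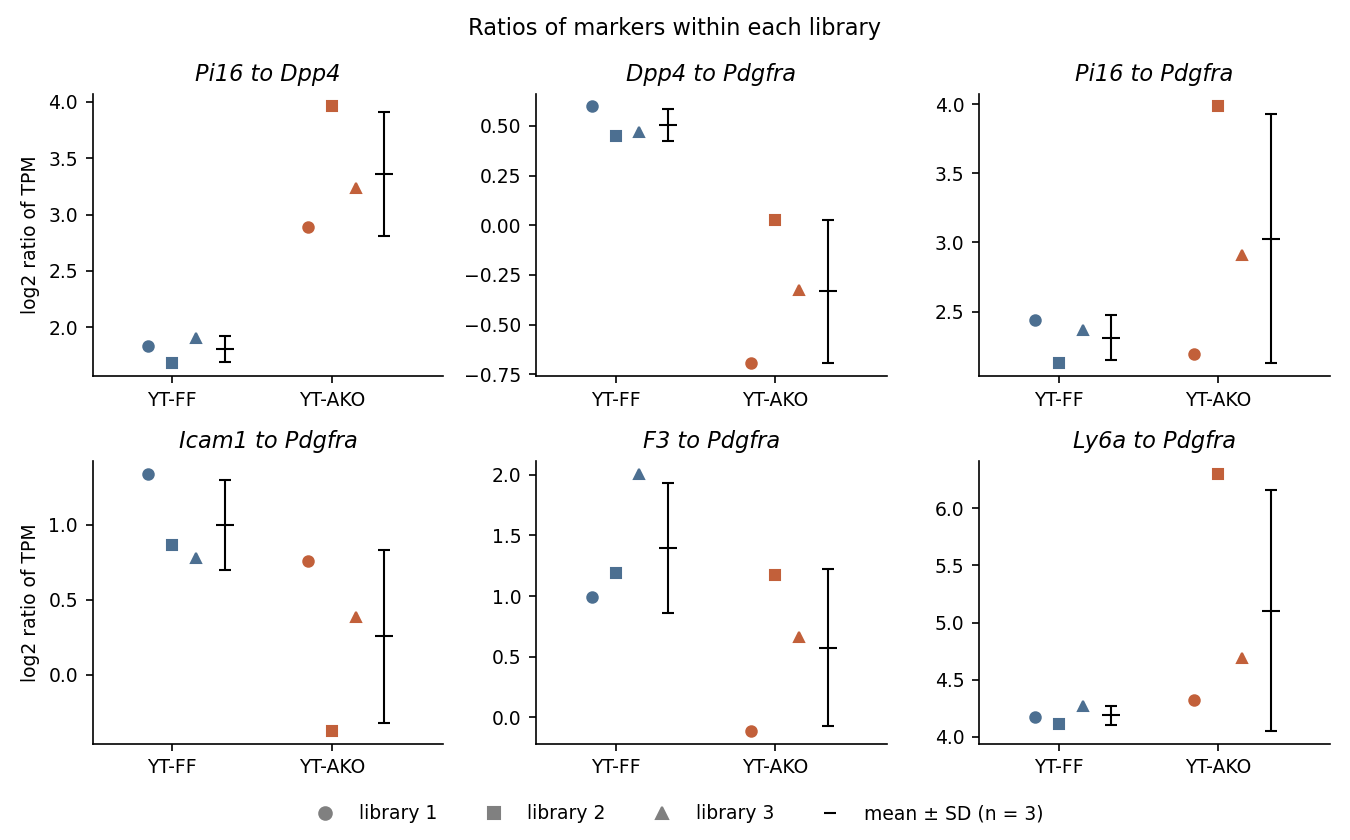
Log2 ratios of TPM between markers within each library, YT-FF against the libraries labelled YT-AKO; points are libraries and bars the group mean with its SD (n = 3). *Pi16* to *Dpp4* averages 1.81 in YT-FF and 3.36 in YT-AKO without overlap, and the ratios of *Pi16* and *F3* to *Pdgfra* overlap between the groups, that of *F3* no longer after length correction.

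Across the 6 libraries, log2 CPM of *Dpp4* correlated at r = -0.94 with *Pi16* and at -0.92 with *Ly6a*, *Pi16* at 0.95 with *Ly6a* and at 0.91 with *Cd34*, and *Pdgfra* at 0.84 with *Icam1*. These values describe 6 libraries that share groups, depth and length composition. Among 10335 genes of at least 10 CPM, the pattern of *Dpp4* was most like that of *Tab2* (r = 0.999), *Papss2*, *Pdzd8*, *Abcb1b* and *Mtmr1*. That of *Icam1* was most like *Fam43a* (0.994), *Ldlrad3*, *Rdx*, *Fam219a* and *Slc38a2*. For *F3* the nearest were *Copg2* (0.994), *Tcaf1*, *Pqlc3*, *Pcmtd1* and *Lama4*, and for *Pdgfra* *Frmd6* (0.991), *Spred1*, *Bcl10*, *Sh3pxd2b* and *Mlec*.

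At an adjusted p under 0.05 edgeR called 12.6% of all tested genes higher and 9.01% lower, and DESeq2 18.1% and 14.3%. These shares stand beside the list counts that follow. Of 12 interstitial genes tested, the 2 that passed were *Pi16* and *Dpp4*, and the median log2 fold change was -0.16. *Wnt2* was at 0.57, *Anxa3* at 0.37 (adjusted p = 0.196) and *Dact2* at 0.37. *Creb5* was at -0.04, *Aldh1a3* at -0.12, *Cd55* at -0.21, *Sema3c* at -0.29, *Fbn1* at -0.40, *Bmp7* at -0.44 and *Opcml* at -0.63. By CPM *Cd55* and *Bmp7* were lower without overlap, as was *Dpp4*, where 25.8% of tested genes were. Of 8 committed-preadipocyte genes, 3 rose and 0 fell in edgeR (median 0.59; 4 and 0 at an unadjusted p under 0.05, where 22.2% and 18.6% of all genes were, and 3 and 0 in DESeq2). They were *Apoe*, an apolipoprotein that many stromal cells, adipocytes and macrophages make (2309 ± 234 to 8149 ± 3281 CPM; 1.82, adjusted p = 0.0185), *Bmper*, a secreted modulator of BMP signalling (1.46, 0.0166), and *Ggt5* (0.82, 0.0416). Of 11 regulatory genes, 1 rose, the BMP family ligand *Gdf10* (0.87, adjusted p = 0.0456), and 0 fell in edgeR (median 0.43; 6 and 2 at an unadjusted p under 0.05, beside the same shares of all genes, and 3 and 2 in DESeq2). *Mgp* (1.48, adjusted p = 0.0609) and *Inmt* (1.20, 0.0784) did not pass. *Bmper*, *Ggt5*, *Gdf10*, *Lum*, *Mfap5* and *Osr1* are named because they are among the few of their lists that passed, which was seen first.

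Of 17 general fibroblast genes, 4 rose in the libraries labelled YT-AKO and 0 fell in edgeR, where 12.6% and 9.01% of all genes did. The median was 0.47. At an unadjusted p under 0.05 it was 6 and 1, where 22.2% and 18.6% of all genes were. DESeq2 called 7 higher and 0 lower, beside 18.1% and 14.3% of all genes. Besides *Ly6a*, those that rose in edgeR were *Gsn*, the actin-severing gelsolin (6261 ± 835 to 16171 ± 4854 CPM, log2 fold change 1.37, adjusted p = 0.0258), the small proteoglycan *Lum* (0.72, 0.0272) and the microfibril gene *Mfap5* (0.73, 0.0299). *Col3a1* was at 0.51 (adjusted p = 0.182) and *Cd24a* at -0.49 (0.0844). Of 8 tested mesenchymal transcription factors 2 rose, *Twist2* (1.31, adjusted p = 0.0213) and *Osr1* (0.85, 0.0366), and *Twist1* was at 0.68 (0.0606). Of 7 PDGF ligand and receptor genes 0 passed in edgeR (median 0.08, -0.24 with library totals; 1 at an unadjusted p under 0.05, beside 40.8% of all genes, and 0 in DESeq2): *Pdgfd* was at -0.65 (edgeR adjusted p = 0.0880), *Pdgfa* at 0.32 (0.318) and *Pdgfb* at 0.06 (0.802). Of the 9 genes of these lists that rose besides *Pi16* and *Ly6a*, none passed without YT-FF replicate 1 or without YT-FF replicate 2, and of the 9 only *Apoe* and *Bmper* passed without YT-FF replicate 3. *Gdf10* was also lost without YT-AKO replicate 1 (0.0908) and replicate 3 (0.0923), *Lum* without YT-AKO replicate 3 (0.0571) and *Osr1* without YT-AKO replicate 1 (0.0584). With length correction *Lum* was at 0.50 (edgeR adjusted p = 0.0831) and *Osr1* at 0.55 (0.108), and *Ggt5*, *Gdf10*, *Lum*, *Mfap5* and *Osr1* did not pass with library totals (0.104 to 0.182). With library totals the medians of the interstitial, committed, regulatory and fibroblast lists were -0.48, 0.25, 0.12 and 0.15.

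**Figure D5:**
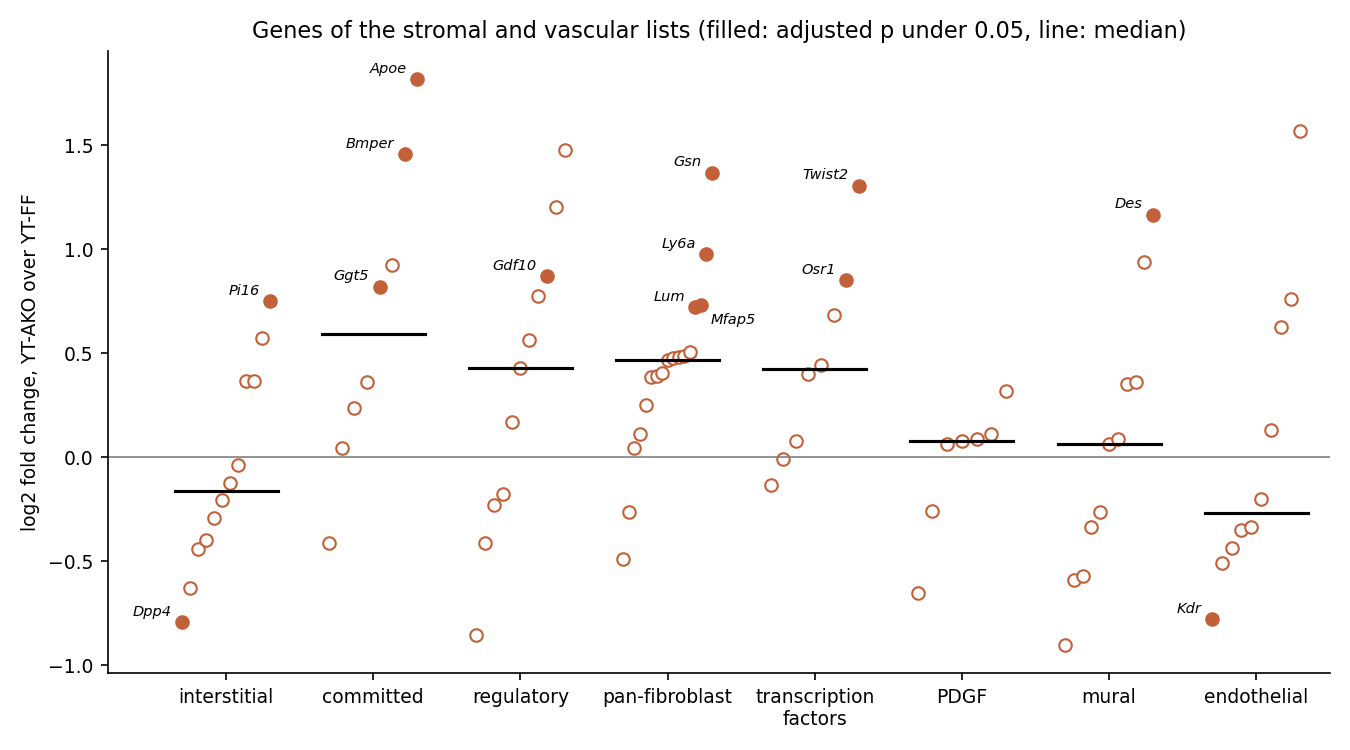
Log2 fold changes (libraries labelled YT-AKO over YT-FF) of the tested genes in 8 stromal and vascular gene lists; each point is a gene, filled where the edgeR adjusted p is under 0.05, and lines are list medians. Of the 12 interstitial genes *Pi16* and *Dpp4* pass on opposite sides of 0, and of the 17 fibroblast genes 4 pass, all above 0.

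Markers of other cells of the depot moved with the groups as follows, and their part in the results was not tested. Summed CPM of 11 mural markers ran from 894 to 941 in YT-FF and 792 to 900 in the libraries labelled YT-AKO. Only *Des* was called in edgeR, as higher (1.17, adjusted p = 0.0377), where 21.6% of all genes were called, and the median of the 11 was 0.06. *Notch3* was at -0.90 (0.135), *Mcam* at -0.59 (0.0604) and *Rgs5* at -0.27 (0.229). By CPM *Notch3*, *Mcam* and *Rgs5* were lower without overlap and *Des* higher, where 25.8% and 25.7% of tested genes were. Summed endothelial markers, which bear on *Cd34* and *Icam1*, ran from 838 to 899 and 770 to 1224, highest in YT-AKO replicate 2. There *Cldn5* was at 454 CPM, against 53.9 to 111 in the other libraries. In edgeR 1 of 10 was lower (*Kdr*, -0.78, adjusted p = 0.0358, and -0.40 and 0.104 with length correction), where 9.01% of all genes were. The median was -0.27. By CPM *Pecam1*, *Cdh5*, *Tek*, *Kdr* and *Erg* were lower without overlap and *Cldn5* higher, where 25.8% and 25.7% of tested genes were. Myeloid markers ran from 1306 to 1639 and 1454 to 1762, B cell markers from 963 to 1113 and 570 to 926. Adipocyte markers ran from 15163 to 19755 and 35092 to 66247, and beige markers from 157 to 223 and 1603 to 3444. Both sums were higher in every YT-AKO library. *Cfd* had the largest mean in the adipocyte sum (5538 CPM in YT-FF and 28940 in YT-AKO). Of the 10 adipocyte genes 3 rose and 0 fell in edgeR (median 0.44), where 12.6% and 9.01% of all genes did. *Adipoq* was at 0.43 (adjusted p = 0.176). Muscle markers ran from 141 to 439 and 257 to 3058, highest in YT-AKO replicate 1, and 1 mesothelial and 1 epithelial marker were at 0 in all libraries.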

How the data were processed

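Total RNA of whole scWAT was sequenced in 3 YT-FF and 3 YT-AKO libraries. The authors aligned reads to mm10 with HISAT2 and counted them per gene with featureCounts 2.0.1 on GENCODE vM25, without strand; the deposited values are raw counts with an exon length per gene. The upstream names come from the file headers, the study's methods and the submitters' processing notes. Counts were tested with edgeR 4.0.16 (quasi-likelihood, TMM scaling, filterByExpr with a minimum count of 10 and total of 15, Benjamini-Hochberg over 16807 genes) in R 4.3.3; DESeq2 1.42.0 and limma 3.58.1 voom were alternatives, as were other scalings, filters, a length correction (spline, 6 degrees of freedom), a replicate block and leaving out each library. The test was tried on simulated counts. CPM and TPM were computed from the deposited counts; ratios were compared by exact permutation in SciPy 1.17.1. The study's methods give 3 male mice per group, so p-values measure the spread between mice.

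The 10 genes and the other lists were chosen with earlier results of these data known. Named genes are the 10, the 5 most similar to *Pdgfra*, *Dpp4*, *Icam1* and *F3*, and *Yap1* and *Wwtr1*. From the stromal and vascular lists they are most of the 2 most abundant and the most changed in each direction. Further genes of these lists are named where they passed the test and, in the mural and endothelial lists, where they did not overlap. The interstitial genes are all named. Some genes of the other stromal lists that did not overlap are not named. Genes of the other cell type lists are mostly given only as sums, including abundant and strongly changed ones. Genes read on shared or overlapping sequence were left as counted.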

Additional observations from a re-analysis of the deposited data

How the results depend on the processing

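Changes under the alternatives were compared for the 10 genes, *Yap1* and *Wwtr1*. From the stromal and vascular lists, the most abundant, most changed and called genes were added. Of these log2 fold changes, 522 kept direction and side of the threshold, 100 lost the call, 45 gained it and 13 reversed. The cause was not tested. Among the 10 genes, 2 higher and 1 lower became 4 and 2 with DESeq2, 0 and 2 with library totals, 2 and 2 without a filter or with at least 10 counts in every library, and 3 and 2 with length correction. The other listed stromal genes went from 9 higher and 0 lower to 4 and 2 with library totals, with 1 lower under DESeq2 and under length correction. All tested genes went from 2121 higher and 1515 lower to 1137 and 2828 with library totals, to 2392 lower with DESeq2 and to 763 lower with length correction. With length correction and YT-AKO replicate 2 left out, chosen after seeing the data, 5 of the 10 were higher and 2 lower, 13 other listed genes were higher and 1 lower, and 2609 and 1469 of all genes. The replicate numbers did not pair the samples (correlations of same-numbered deviations 0.126, -0.118 and -0.089); with a replicate block in edgeR 0 and 0 of the 10 (5 at an unadjusted p under 0.05, beside 34.5% of all genes), 0 of the other listed genes, and 24 and 9 of all genes passed, and with block and length correction 0 and 0, 1, and 59 and 22. Leaving out 1 library gave 0 to 4 higher and 0 to 1 lower of the 10, 0 to 17 and 0 to 2 of the others, and 0 to 2925 and 0 to 2424 of all genes.

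With library totals *Pdgfra* (-0.18), *Pdgfrb* (-0.24), *Thy1* (-0.11), *Bgn* (-0.14), *Pdgfa* (-0.012), *Pdgfb* (-0.25) and *Sparcl1* (-0.070) reversed. Leaving out 1 library, *Pdgfra* ran from -0.22 (without YT-AKO replicate 1) to 0.40, *Icam1* from -1.06 to 0.012 (without YT-AKO replicate 2), the log2 fold change of Bgn from -0.047 (without YT-AKO replicate 3) to 0.28 and *Pdgfb* from -0.082 (without YT-AKO replicate 3) to 0.16. With length correction and without YT-AKO replicate 2, *Icam1* was at 0.059 and *Thy1* at -0.052. With length-corrected counts the log2 ratio differences were -0.20 for *Pdgfrb* and -0.34 for *Thy1* to *Pdgfra*, 0.056 for *Dpp4* to *Icam1* and 0.43 for *Dpp4* to *F3*. Leaving out 1 library, the differences to *Pdgfra* ran from -0.28 to 0.37 for *Pdgfrb*, -0.33 to 0.62 for *Thy1*, 0.09 to 0.77 for *Cd34*, 0.08 to 0.62 for *Dcn*, 0.24 to 1.13 for *Pi16*, 0.32 to 1.31 for *Ly6a*, -1.01 to -0.66 for *Dpp4*, -1.12 to -0.48 for *F3* and -0.99 to -0.42 for *Icam1*. Those between states ran from -0.59 to 0.34 for *Dpp4* to *Icam1*, -0.34 to 0.23 for *Dpp4* to *F3*, -0.51 to 0.70 for *Icam1* to *F3*, 0.66 to 2.12 for *Pi16* to *Icam1* and 1.25 to 1.79 for *Pi16* to *Dpp4*. By level, *Cd34* and *F3* took ranks 5 to 6 in YT-FF, and in YT-AKO *Pdgfrb* took 6 to 7, *Icam1* 6 to 8 and *F3* 7 to 8 when 1 library was left out. With TMM-scaled CPM per kilobase *Icam1* ranked 8 and *F3* 7 in YT-AKO.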
